A study of Mus musculus with 7 samples.

Results

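The expression of 83 genes of the ubiquitin system was compared in tibialis anterior (TA), a shin muscle made mostly of fast fibres, between wild-type (WT) mice and mice lacking fMyBP-C (C2-/-). The genes were taken by name: every symbol of the expression table that begins with Ube2 (ubiquitin-conjugating enzymes, 33 genes), or with Usp and a number (44 genes) or Otud (6 genes), which together are deubiquitinases (50 genes). They are 83 of the 12239 genes in the table. The mouse annotation (GRCm38.p6) holds 101 protein-coding genes with such symbols, and those outside the table, among them *Ube2d2b*, *Usp27x*, *Usp51*, *Otud6a* and *Otud7a*, were not analysed here. Which filter left the 12239 genes is not given in the sources used here, so the 83 are the genes that passed it and not the whole families. A few of the names mislead about function, since *Ube2cbp* encodes a ubiquitin ligase, *Usp6nl* a GTPase-activating protein and *Usp39* a splicing protein without known deubiquitinating activity.

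All animals were FVBN males aged 5 to 6 months, 4 WT and 3 C2-/-, with 1 library each. In every tissue of the C2-/- mice a Neo cassette between LoxP sites replaces exons 2 to 22 of *Mybpc2*, the gene of fast skeletal myosin-binding protein C, a thick-filament protein, so the muscle developed without the protein. *Mybpc2* was read 25665 to 110159 times per WT library and 6, 8 and 3 times in C2-/- replicates 1 to 3, so every library matched its label. Values are log2 CPM, the log2 of reads per 1e6 reads of a library after TMM scaling, and each change is the C2-/- mean less the WT mean, given ± its standard error (SE) from the limma fit. A gene was past the threshold with a Benjamini-Hochberg adjusted p under 0.05 over all 12239 genes and a fold above 1.5 either way (0.585 on the log2 scale), and only such genes are said to have risen or fallen. The libraries differed in depth: WT replicates 1 to 3 held 14929214 to 15464499 reads, WT replicate 4 held 4683853, and the C2-/- libraries held 2613277 to 4917936. Depth and genotype thus cannot be told apart except through WT replicate 4. For 34 of the 83 genes its value lay closer to the C2-/- average than to the average of WT replicates 1 to 3, 19 of them conjugating enzymes. Over all genes the same held for 4660 of 12239, so it was not particular to these genes. C2-/- replicate 2, the shallowest, had 7 of the 83 genes at 0 reads. A gene with 3 reads stands at 0.195 to 1.12 CPM depending on the library, a limit that covers counting error only.

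Ubiquitin is activated by an E1 enzyme, passed to a conjugating enzyme (E2) and attached to a protein with the help of a ligase (E3). Different E2s start chains, extend them through particular lysines of ubiquitin, or carry a related modifier such as SUMO, NEDD8 or ISG15. Deubiquitinases take ubiquitin off again, edit chains or recycle them into free ubiquitin. In skeletal muscle this system, with the proteasome, removes myofibrillar proteins, and *Ube2b* and *Usp19* are among its enzymes long studied in wasting muscle.

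Close relatives moved in opposite directions in 5 of 16 families. No rate for unrelated genes was computed, and 20.2% of all genes rose and 25.0% fell. These 5 pairs, picked for their opposite directions, are shown by their sequence. The relatives shared 35 to 52 of the 60 bases printed, and their whole transcripts differ in GC content. For each pair the 60 bases of coding sequence, within a single exon, that match best between the transcripts of the relatives are printed 5′ to 3′ with every G and C in capitals. The pairs are *Ube2g1* and *Ube2g2*, *Ube2v2* and *Ube2v1*, *Ube2f* and *Ube2m*, *Usp15* and *Usp4*, and *Usp33* and *Usp20*. In each pair the first rose in C2-/- muscle and the second fell.
*Ube2g1*: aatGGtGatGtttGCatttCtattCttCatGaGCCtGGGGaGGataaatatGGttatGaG
*Ube2g2*: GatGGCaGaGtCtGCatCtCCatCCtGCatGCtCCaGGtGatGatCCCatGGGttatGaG
*Ube2v2*: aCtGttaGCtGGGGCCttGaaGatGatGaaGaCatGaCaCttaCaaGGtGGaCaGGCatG
*Ube2v1*: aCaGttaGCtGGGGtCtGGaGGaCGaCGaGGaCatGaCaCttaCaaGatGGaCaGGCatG
*Ube2f*: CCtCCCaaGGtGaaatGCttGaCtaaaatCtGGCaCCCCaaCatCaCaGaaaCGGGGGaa
*Ube2m*: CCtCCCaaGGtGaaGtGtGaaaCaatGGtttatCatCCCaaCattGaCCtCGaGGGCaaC
*Usp15*: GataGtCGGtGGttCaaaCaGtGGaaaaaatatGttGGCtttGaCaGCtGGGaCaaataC
*Usp4*: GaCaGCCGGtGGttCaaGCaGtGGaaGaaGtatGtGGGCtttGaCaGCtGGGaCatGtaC
*Usp33*: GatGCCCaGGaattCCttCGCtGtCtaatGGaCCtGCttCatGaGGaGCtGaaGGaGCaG
*Usp20*: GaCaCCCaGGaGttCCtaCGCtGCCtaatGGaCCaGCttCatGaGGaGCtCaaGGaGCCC

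The stretches lie in GRCm38 at chr11:72677713-72677772 (plus strand, exon 5 of 7) for *Ube2g1* and at chr10:77643477-77643536 (plus strand, exon 5 of 6) for *Ube2g2*. Those of the E2-like pair are at chr16:15581077-15581136 (minus strand, exon 2 of 4) for *Ube2v2* and chr2:167617847-167617906 (minus strand, exon 2 of 4) for *Ube2v1*. The NEDD8 enzymes' stretches are at chr1:91276386-91276445 (plus strand, exon 6 of 10) for *Ube2f* and chr7:13036232-13036291 (minus strand, exon 4 of 6) for *Ube2m*. Those of the deubiquitinases are at chr10:123181731-123181790 (minus strand, exon 2 of 22) for *Usp15*, chr9:108350920-108350979 (plus strand, exon 2 of 22) for *Usp4*, chr3:152368236-152368295 (plus strand, exon 10 of 24) for *Usp33* and chr2:31010166-31010225 (plus strand, exon 11 of 25) for *Usp20*. The *Ube2v2* and *Ube2v1* stretches shared 52 of 60 bases, and all 8 differences fell on the last base of a codon. *Usp15* and *Usp4* also shared 52, with 7 of their 8 differences there, and *Usp33* and *Usp20* shared 51, with 6 of 9 there. *Ube2g1* and *Ube2g2* shared 39, with 13 of 21 differences there, and *Ube2f* and *Ube2m* shared 35, with 13 of 25 there. G and C made up 23 and 32 of the bases in the *Ube2g1* and *Ube2g2* stretches, 29 and 32 in *Ube2v2* and *Ube2v1*, 25 and 32 in *Usp15* and *Usp4*, and 32 and 35 in *Usp33* and *Usp20*. In *Ube2f* and *Ube2m* they made up 30 and 29, so in this stretch, unlike in the other 4 pairs, the gene that rose held more. Over whole transcripts, *Ube2g1* was 40.9% GC and *Ube2g2* 54.5%, *Ube2v2* 35.1% and *Ube2v1* 55.1%, *Usp15* 42.3% and *Usp4* 51.0%, *Usp33* 43.0% and *Usp20* 55.9%, and *Ube2f* 47.7% and *Ube2m* 63.4%.

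Of the 83 genes, 22 rose and 16 fell in C2-/- muscle, which is 45.8% past the threshold, against 45.2% of all 12239 genes (20.2% higher and 25.0% lower). Both families held genes of both directions. Of the 33 conjugating enzymes, 13 rose, 7 fell and 13 did not pass, with a median log2 change of 0.25. Of the 50 deubiquitinases, 9 rose, 9 fell and 32 did not pass, with a median of 0.08. The median over all genes was -0.14. In percent, 39.4% of the conjugating enzymes and 18% of the deubiquitinases rose, and 21.2% and 18% fell. The difference between the families was not tested, and in bulk muscle fewer cells of a type and less RNA per cell cannot be told apart. Leaving out *Ube2cbp* and *Usp6nl* gave 13 higher and 7 lower of 32 conjugating enzymes and 9 and 9 of 49 deubiquitinases. The C2-/- and WT values did not overlap for 21 of the 83 genes upwards and 16 downwards, against 49.3% of all genes in either direction. Without WT replicate 4 the counts were 15 higher and 7 lower among conjugating enzymes and 11 and 10 among deubiquitinases, and without C2-/- replicate 2 they were 11 and 6, and 10 and 8.

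**Figure D1:**
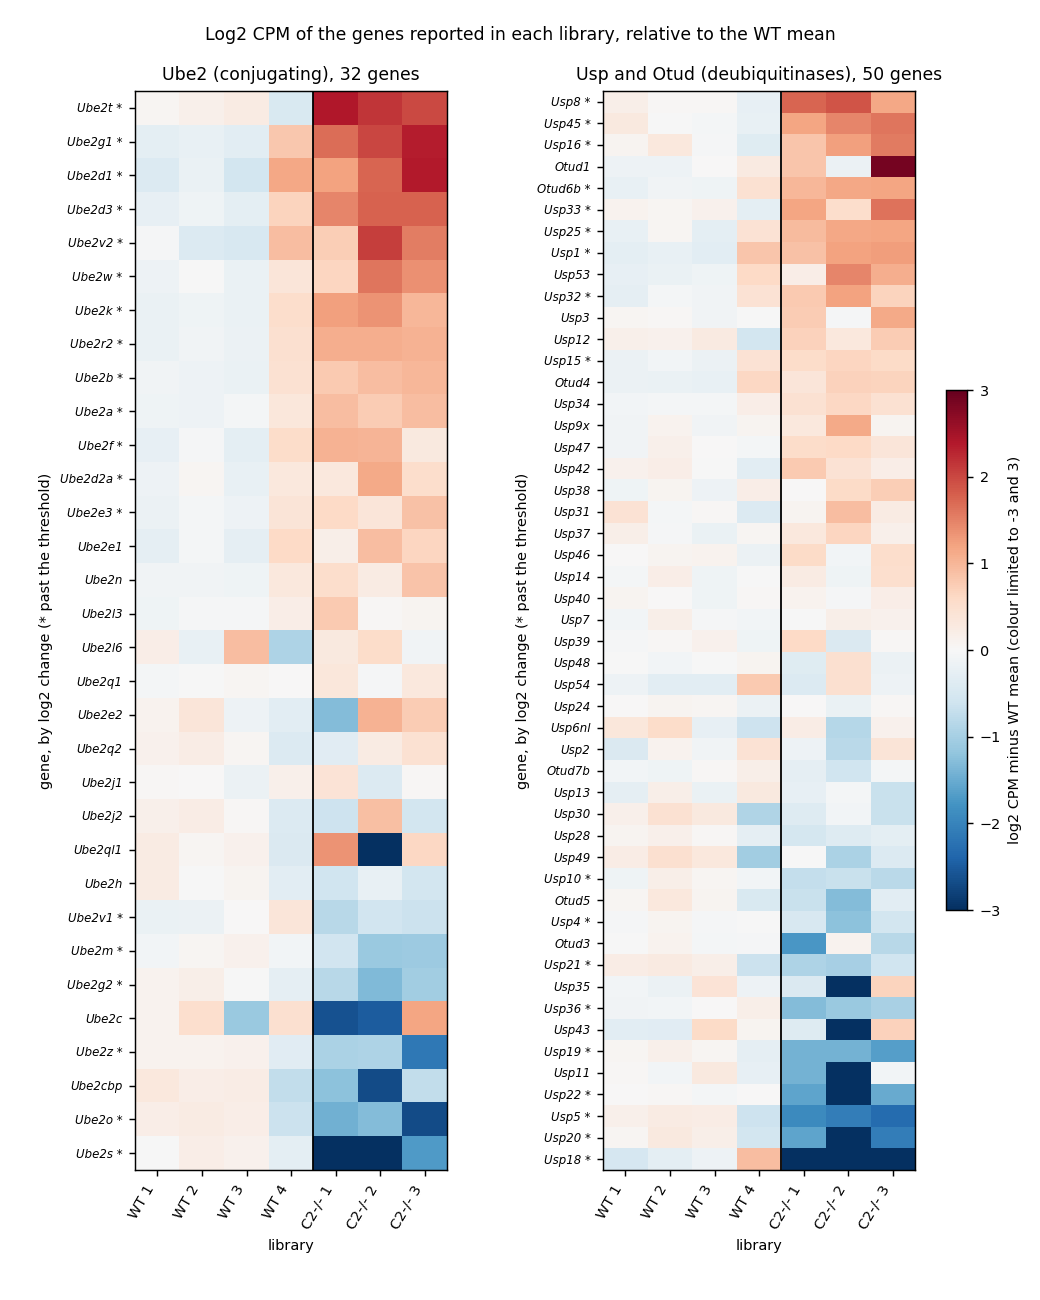
Log2 CPM of each gene reported by name in each of the 7 libraries minus the mean of the 4 WT libraries, with conjugating enzymes on the left and deubiquitinases on the right, in order of their log2 change; red is higher, blue lower, and asterisks mark genes past the threshold. Most genes at the top of the left panel are also pink in WT 4, and the deepest blues of C2-/- 2 in genes without an asterisk are genes with few or 0 reads.

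These counts changed when the GC content of the transcripts was corrected for. Over all genes the log2 change went with GC content, so the correction also takes out any genotype difference that follows GC. Lost calls therefore do not show which of the 2 sets of values is nearer the truth. A GC correction, in which the dependence of each library's log2 values on transcript GC content was fitted as a smooth curve and replaced by the average curve of the 7 libraries, left 6 conjugating enzymes higher and 0 lower and 3 deubiquitinases higher and 5 lower, with 12.3% of all genes higher and 8.33% lower. Of the 38 genes past the threshold, 9 were past it in the same direction after the correction and 1, *Ube2m*, in the opposite direction. Setting the median of every library to the same value, which moved the median change of all genes by 0.16, gave 15 conjugating enzymes higher and 5 lower and 16 deubiquitinases higher and 7 lower, so that 72.1% of the calls among the 83 genes were upward instead of 57.9%. Over all genes the same step moved that share from 44.7% to 54.0%. WT replicate 4 alone, which is itself part of the WT mean, was also set against the C2-/- mean. That mean lay in the direction of the reported change for 74 of the 83 genes and for 10506 of all 12239 genes. It did so for all 38 genes past the threshold, which were selected by the size of their change. The difference was smaller than the reported change for 29 of the 38 and above 1.5-fold for 27, and all 3 C2-/- values lay beyond WT replicate 4 for 33. These values carry no test, and the counts over the 38 were not taken over the other genes past the threshold. *Ube2d1*, *Ube2g1*, *Ube2r2*, *Usp5*, *Usp8*, *Usp18*, *Usp22* and *Usp25* were past the threshold in the same direction in each of the 20 alternative fits that kept them.

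Conjugating enzymes took a larger share of the counted reads in the C2-/- libraries. Their summed level was 2750, 2883, 2699 and 4268 CPM in WT replicates 1 to 4 and 5543, 6379 and 7076 CPM in C2-/- replicates 1 to 3, so that every C2-/- library lay above every WT library. The group means were 3150 ± 749 (SD, n = 4) and 6333 ± 768 (n = 3) CPM, a ratio of 2.01, and of 1.48 against WT replicate 4 alone. The deubiquitinases summed to 3131, 3530, 3220 and 3578 CPM in WT and to 3869, 4036 and 4241 CPM in C2-/-, a ratio of 1.20, again without overlap. Their sum exceeded that of the conjugating enzymes in WT replicates 1 to 3 and was below it in the other 4 libraries. *Ube2b*, *Ube2d1* and *Ube2d3*, chosen as the most abundant after their values were seen, supplied 40.9% to 51.7% of the conjugating-enzyme sum in WT and 53.4% to 60.6% in C2-/-. Without them the sum was 1588 to 2061 CPM in WT and 2585 to 2790 CPM in C2-/-. Averaged over genes on the log2 scale, where each gene counts alike, the groups came closer: the centred mean was -0.15 to 0.02 in WT and 0.01 to 0.24 in C2-/- for conjugating enzymes, and 0.03 to 0.11 and -0.31 to 0.14 for deubiquitinases, with overlap in both. After the GC correction the conjugating mean was -0.16 to 0.03 in WT and -0.06 to 0.23 in C2-/-, also with overlap. The sums were not recomputed with GC corrected. The changes of *Ube2b*, *Ube2d1* and *Ube2d3* were then 0.06, 1.36 and 0.55.

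**Figure D2:**
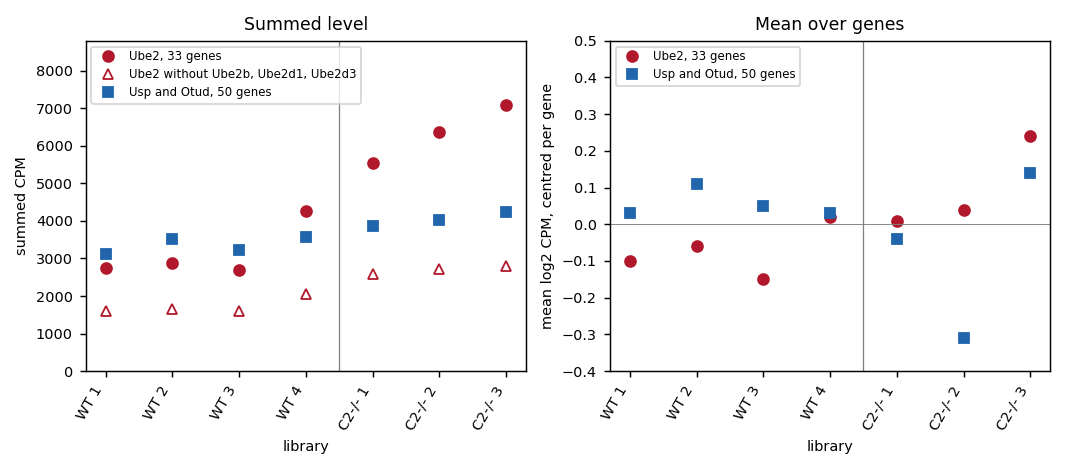
Left, summed CPM of the 33 Ube2 genes (circles), of the Ube2 genes without Ube2b, Ube2d1 and Ube2d3 (triangles) and of the 50 Usp and Otud genes (squares) in each library; right, the mean over genes of the log2 CPM centred on the gene's own mean. The Ube2 sum is 2699 to 4268 CPM in WT and 5543 to 7076 CPM in C2-/-, whereas the gene means on the right overlap between the groups.

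Levels of different genes were compared as CPM per kb of transcript, taking the longest protein-coding transcript of each gene. *Ube2b* had the highest mean of the 83 in WT (353 ± 81.8 CPM per kb, SD), followed by *Ube2d1* (237 ± 153) and *Ube2d3* (118 ± 41.8), with gaps between neighbours that were each within the SD of *Ube2d1*. In C2-/- the order of the first and second was reversed, at 760 ± 308 CPM per kb for *Ube2d1* and 650 ± 48.4 for *Ube2b*, a gap within the SD of *Ube2d1*. The deubiquitinases with the highest means in WT were *Usp47* (75.1 ± 5.70), *Usp19* (69.0 ± 8.29) and *Usp2* (63.3 ± 16.1), where *Usp47* and *Usp19* were apart by less than the SD of *Usp19*, and *Usp19* and *Usp2* by less than that of *Usp2*. *Usp19* dropped to 24.4 ± 2.13 CPM per kb in C2-/-. At the low end, *Usp35*, *Ube2c*, *Usp6nl*, *Usp49*, *Usp43*, *Ube2ql1*, *Usp11* and *Ube2j2* lay between 0.376 and 0.826 CPM per kb in WT, and none of these 8 passed the test between the groups.

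The Ube2d and Ube2e families, which work with many ligases and often place the first ubiquitin, had 4 of 6 members higher and 0 lower. *Ube2d1* (chr10:71254980-71285384 in GRCm38) stood at 7.81, 8.03, 7.68 and 9.38 log2 CPM in WT against 9.44, 9.97 and 10.61 in C2-/-, with every C2-/- value above every WT value although WT replicate 4 reached 9.38. It rose by 1.78 ± 0.40, adjusted p = 0.00586. *Ube2d3* stood at 8.51, 8.64, 8.47 and 9.43 in WT and 10.22, 10.53 and 10.53 in C2-/-, without overlap, and rose by 1.66 ± 0.24, adjusted p = 0.000808. Their relative *Ube2d2a* rose less, by 0.66 ± 0.23, adjusted p = 0.0391, with overlapping groups (5.61, 5.81, 5.53 and 6.08 in WT and 6.07, 6.89 and 6.28 in C2-/-), and was not past the threshold when any of WT replicates 1, 2 and 3 or C2-/- replicates 2 and 3 was left out (0.42 to 0.72). *Ube2e3* rose by 0.61 ± 0.22, adjusted p = 0.0443 and was lost in the same way without WT replicate 1, 2 or 3 or C2-/- replicate 1 or 3 (0.47 to 0.62). *Ube2e1* and *Ube2e2* did not pass, with changes of 0.58 ± 0.26 and 0.17 ± 0.61. With GC corrected, *Ube2d1* was past the threshold (change 1.36, adjusted p = 0.0294), and *Ube2d3* fell short in size (0.55, adjusted p = 0.0488). *Ube2d2a* (0.20, adjusted p = 0.539) and *Ube2e3* (0.12, adjusted p = 0.692) were then not past it either, which left 1 of the 4.

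Enzymes that extend chains through lysine 48 or act at the endoplasmic reticulum had 3 of 6 members higher and 1 lower. *Ube2g1* (chr11:72607261-72686481 in GRCm38), an E2 that extends chains on substrates of cullin ligases, stood at 7.13, 7.20, 7.09 and 8.23 log2 CPM in WT against 9.10, 9.42 and 9.76 in C2-/-. It rose by 2.02 ± 0.28, adjusted p = 0.000744, a fold of 4.04, and all C2-/- values lay above WT replicate 4, itself more than 1 log2 unit above the other WT libraries. *Ube2g2*, the E2 of endoplasmic-reticulum-associated degradation, went the other way. It stood at 6.34, 6.42, 6.23 and 5.98 in WT and 5.42, 4.93 and 5.21 in C2-/-, without overlap, and fell, with a change of -1.06 ± 0.19, adjusted p = 0.00227. *Ube2k*, which builds lysine-48 chains, rose by 1.19 ± 0.21, adjusted p = 0.00195, from 6.12 ± 0.35 (SD) log2 CPM in WT and 7.31 ± 0.17 in C2-/-. *Ube2r2* (chr4:41136021-41193370), the second mammalian form of the cell-cycle E2 Cdc34, stood at 7.95, 8.04, 7.96 and 8.61 log2 CPM in WT against 9.23, 9.24 and 9.19 in C2-/-. Its C2-/- values ran from 9.19 to 9.24 and lay above all WT values, and it rose by 1.08 ± 0.19, adjusted p = 0.00172. *Ube2j1* and *Ube2j2*, anchored in the endoplasmic reticulum membrane, did not pass (0.01 ± 0.21 and -0.09 ± 0.53). After the GC correction the changes of *Ube2g1* and *Ube2r2* were 1.03, adjusted p = 0.0109, and 1.34, adjusted p = 0.00297. *Ube2g2* and *Ube2k* then stood at -0.10 and 0.17 and were not past the threshold.

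*Ube2n* forms lysine-63 chains together with the catalytically inactive partners *Ube2v1* or *Ube2v2*, and the partners moved apart. *Ube2v2* stood at 3.90, 3.52, 3.45 and 4.85 log2 CPM in WT against 4.66, 6.00 and 5.47 in C2-/- and rose by 1.45 ± 0.40, adjusted p = 0.015. Its groups overlapped, since WT replicate 4 was above C2-/- replicate 1, and it was not past the threshold without C2-/- replicate 2 (1.14) or 3 (1.41). *Ube2v1* stood at 6.03, 6.05, 6.25 and 6.60 in WT and 5.41, 5.65 and 5.58 in C2-/- and fell, with a change of -0.69 ± 0.19, adjusted p = 0.0157; without WT replicate 4 the change was -0.56, under the fold required. Of its transcript, 83.2% of the 50-base stretches also occur in other transcripts, chiefly an overlapping read-through gene, so its reads could be divided between them. *Ube2n* itself was just outside the threshold at 0.54 ± 0.20, adjusted p = 0.0491. *Ube2a* and *Ube2b*, the forms of yeast Rad6, rose together. *Ube2a* stood at 4.92, 4.90, 4.99 and 5.38 in WT and 5.98, 5.82 and 5.97 in C2-/- and *Ube2b* at 9.16, 9.13, 9.08 and 9.73 in WT and 10.07, 10.20 and 10.28 in C2-/-, both without overlap, with changes of 0.88 ± 0.19, adjusted p = 0.00518, and 0.91 ± 0.19, adjusted p = 0.00415. *Ube2t*, the E2 of the Fanconi anaemia repair pathway, had few reads (4 to 25 per WT library and 16 to 26 per C2-/- library). It stood at 0.55, 0.65, 0.73 and 0.03 in WT and 2.89, 2.63 and 2.46 in C2-/- and rose by 2.16 ± 0.46, adjusted p = 0.00439, and by 1.97, adjusted p = 0.0139, after the GC correction. After that correction *Ube2a*, *Ube2b*, *Ube2v1* and *Ube2v2* stood at 0.02, 0.06, 0.35 and -0.14, none past the threshold and the last pair with the sign turned.

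The E2s of the anaphase-promoting complex, *Ube2c*, which starts chains, and *Ube2s*, which extends them, gave 1 of 2 lower. *Ube2s* stood at 5.14, 5.33, 5.26 and 4.84 log2 CPM in WT against 1.98, 1.97 and 3.44 in C2-/-, with 11, 10 and 52 reads in C2-/-. Its fall was the largest among the conjugating enzymes in these values, with a change of -2.67 ± 0.38, adjusted p = 0.000735, and of -1.16, adjusted p = 0.0539, after the GC correction. *Ube2c* had 6 to 22 reads per WT library and 0, 0 and 11 in C2-/-, and its change was -1.31 ± 1.02, adjusted p = 0.307. Of the proliferation markers *Mki67*, *Top2a*, *Ccnb1* and *Cdk1*, only *Mki67* was in the table, at 0.518 CPM in WT and 2.39 CPM in C2-/- (change 2.25 ± 0.68, adjusted p = 0.0223). It was not past the threshold after the GC correction (1.92, adjusted p = 0.0648), nor without WT replicate 1 or 3 or C2-/- replicate 2 (1.98 to 2.08). Its part in the *Ube2s* and *Ube2t* results was not tested.

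Among the E2s of ubiquitin-like modifiers, those of NEDD8 moved in opposite directions. *Ube2m* stood at 6.67, 6.81, 6.88 and 6.69 log2 CPM in WT against 6.18, 5.66 and 5.67 in C2-/- and fell, with a change of -0.92 ± 0.18, adjusted p = 0.00293, without overlap. *Ube2f* stood at 5.44, 5.65, 5.38 and 6.23 in WT and 6.71, 6.69 and 5.96 in C2-/- and rose by 0.78 ± 0.26, adjusted p = 0.0332, with WT replicate 4 above C2-/- replicate 3. *Ube2f* was not past the threshold without WT replicate 1, 2 or 3 or C2-/- replicate 1 or 2 (0.65 to 0.77). *Ube2m*, the richest in GC of the 83 transcripts at 63.4%, was turned by the GC correction to a change of 1.05, adjusted p = 0.00575. *Ube2f* then stood at 0.60, adjusted p = 0.128, and was not past the threshold. Of the modifiers, *Nedd8* fell (-1.0 ± 0.27, adjusted p = 0.0129) and stood at -0.02 after the GC correction, and *Sumo2* and *Sumo3* did not pass (0.06 ± 0.29 and 0.29 ± 0.23). *Ube2l6*, the E2 of ISG15, was low, with 7 to 94 reads per library, and did not pass (0.25 ± 0.52, adjusted p = 0.718).

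Of the 8 remaining conjugating enzymes 1 rose and 2 fell. *Ube2w*, which ubiquitinates the N-terminus of proteins, stood at 3.26, 3.39, 3.21 and 3.78 in WT and 4.06, 5.02 and 4.79 in C2-/- and rose by 1.21 ± 0.31, adjusted p = 0.00977. *Ube2o*, a large enzyme that joins E2 and E3 functions, stood at 5.68, 5.74, 5.67 and 4.84 log2 CPM in WT against 4.03, 4.18 and 2.79 in C2-/-. Its C2-/- values all lay below WT replicate 4, which was itself the lowest WT value, and the change was -1.81 ± 0.37, adjusted p = 0.00352. *Ube2z*, which is charged by the E1 Uba6, stood at 5.31, 5.31, 5.34 and 4.87 in WT and 4.26, 4.27 and 3.07 in C2-/- and fell, with a change of -1.34 ± 0.32, adjusted p = 0.00726. *Ube2l3*, the partner of parkin and of HECT ligases, and *Ube2h*, the partner of the CTLH ligase, did not pass, at 0.30 ± 0.20 and -0.45 ± 0.19. Nor did *Ube2q1*, *Ube2q2* and *Ube2ql1*, which lay between -0.40 and 0.21, although *Ube2q1* was past the threshold after the GC correction (0.71, adjusted p = 0.0268). That correction left *Ube2w*, *Ube2o* and *Ube2z* at 0.11, -0.33 and -0.84, short of the threshold.

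Among the deubiquitinases that recycle ubiquitin, *Usp5* (chr6:124815019-124829484) fell. This enzyme takes apart free ubiquitin chains. It stood at 6.08, 6.16, 6.14 and 5.29 log2 CPM in WT against 4.00, 3.85 and 3.62 in C2-/-, and all C2-/- values were more than 1 log2 unit below the lowest WT value, that of WT replicate 4. The change was -2.09 ± 0.26, adjusted p = 0.000424, a fold of 0.235, and -0.95, adjusted p = 0.0132, after the GC correction. Its paralog *Usp13* stood at 7.25, 7.69, 7.32 and 7.81 in WT and 7.26, 7.45 and 6.85 in C2-/- with overlap and did not pass (-0.33 ± 0.20, adjusted p = 0.203). *Usp14*, a deubiquitinase of the proteasome, did not pass either (0.21 ± 0.19, adjusted p = 0.391), whereas after the GC correction its change was -0.96, adjusted p = 0.0104, past the threshold. Other proteasome-bound deubiquitinases rose: *Uchl5* by 2.28 ± 0.37, adjusted p = 0.00142, and *Psmd14* by 1.02 ± 0.18, adjusted p = 0.00213. Once GC was corrected, *Uchl5* was still past the threshold (1.10, adjusted p = 0.0283) and *Psmd14* was not (0.29, adjusted p = 0.214).

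Of 5 histone deubiquitinases 1 rose and 2 fell. *Usp22* (chr11:61151781-61175059), the deubiquitinase of the SAGA transcription complex, stood at 4.54, 4.57, 4.48 and 4.56 log2 CPM in WT against 2.95, 1.49 and 3.03 in C2-/-, from 342 to 356 reads in each deep WT library, 103 in WT replicate 4, and 22, 7 and 39 in C2-/-. The WT libraries, including replicate 4, hardly differed. It fell, with a change of -2.05 ± 0.38, adjusted p = 0.00253, and with -1.75, adjusted p = 0.00934, after the GC correction. Of its partners in the same module, *Atxn7l3* fell (-2.14 ± 0.67, adjusted p = 0.0258), and *Atxn7* (1.06 ± 0.18, adjusted p = 0.00154) and *Eny2* (1.10 ± 0.23, adjusted p = 0.00412) rose. After the GC correction *Atxn7* was past the threshold (0.71, adjusted p = 0.0189), whereas *Atxn7l3* (-1.02, adjusted p = 0.303) and *Eny2*, with its sign turned (-0.05, adjusted p = 0.885), were not. *Atxn7l3* was also not past it without WT replicate 1, 2 or 3 (-2.08 to -2.05). Its change was -1.14 without C2-/- replicate 3, which had 5 reads against 21 and 29 in the others, and -2.78 without C2-/- replicate 2. *Usp16*, which acts on histone H2A, stood at 6.23, 6.45, 6.10 and 5.78 in WT and 6.97, 7.37 and 7.70 in C2-/- and rose by 1.20 ± 0.22, adjusted p = 0.00221. *Usp21*, likewise an H2A enzyme, fell by less (-0.84 ± 0.29, adjusted p = 0.0377), with WT replicate 4 at 3.85 inside the C2-/- range of 3.51 to 3.91. It was not past the threshold without WT replicate 1, 2 or 3 or C2-/- replicate 1 or 2 (-0.79 to -0.75). *Usp3* and *Usp49* did not pass (0.62 ± 0.30 and -0.45 ± 0.52). With the GC correction *Usp16* stood at 0.60, adjusted p = 0.0859, and *Usp21* at 0.39, with the sign turned.

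*Usp1*, *Usp12* and *Usp46* are active in complex with Wdr48, whose own change was -0.03 ± 0.26 and did not pass. *Usp1*, which removes ubiquitin from the repair protein Fancd2, stood at 4.24, 4.31, 4.21 and 5.37 log2 CPM in WT against 5.40, 5.73 and 5.78 in C2-/- and rose by 1.10 ± 0.30, adjusted p = 0.0138. WT replicate 4 was only just below the lowest C2-/- value, and the difference between the C2-/- mean and WT replicate 4 alone was 0.27. *Usp12* and *Usp46* did not pass, with changes of 0.59 ± 0.25, adjusted p = 0.0793, and 0.34 ± 0.30, adjusted p = 0.379. With GC corrected, *Usp1* stood at 0.48, adjusted p = 0.214.

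Of the 5 deubiquitinases of membrane traffic and mitochondria 2 rose and 2 fell. *Usp8* (chr2:126707201-126759314), which acts on receptors at the endosome, stood at 5.19, 5.05, 5.03 and 4.75 log2 CPM in WT against 6.75, 6.89 and 6.17 in C2-/-. WT replicate 4 was the lowest library here, and the C2-/- mean was further from it (1.85) than from the WT mean. The change was 1.60 ± 0.22, adjusted p = 0.000638, a fold of 3.02, and 1.19, adjusted p = 0.00721, after the GC correction. *Usp19*, anchored in the endoplasmic reticulum, stood at 8.41, 8.52, 8.42 and 8.10 log2 CPM in WT against 6.94, 6.95 and 6.72 in C2-/-. It fell by 1.49 on the log2 scale (SE 0.16, adjusted p = 0.000292), without overlap, and stood at -0.10, adjusted p = 0.723, after the GC correction.

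*Usp20* and *Usp33*, close relatives that act on the beta2-adrenergic receptor among other proteins, parted. *Usp33* stood at 5.09, 5.04, 5.10 and 4.70 in WT and 6.17, 5.52 and 6.60 in C2-/- and rose by 1.11 ± 0.26, adjusted p = 0.00667. *Usp20* stood at 4.16, 4.39, 4.28 and 3.55 in WT and 2.51, -2.42 and 2.01 in C2-/-, and C2-/- replicate 2 had 0 reads. Its change was -3.39 ± 0.99, adjusted p = 0.0184; without C2-/- replicate 2 it was -1.83, without replicate 1 it was -4.30 and without replicate 3 it was -4.05. *Usp30*, on the mitochondrial outer membrane, did not pass (-0.38 ± 0.40, adjusted p = 0.447). Once GC was corrected, neither *Usp33* (0.35, adjusted p = 0.387) nor *Usp20* (-2.23, adjusted p = 0.102) was past the threshold.

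In the family of *Usp4*, *Usp11* and *Usp15*, *Usp4* fell (-0.76 ± 0.20, adjusted p = 0.0123) and *Usp15* rose (0.59 ± 0.18, adjusted p = 0.0214). *Usp4* stood at 6.93, 7.05, 6.92 and 6.94 in WT and 6.47, 5.72 and 6.42 in C2-/- and *Usp15* at 7.62, 7.72, 7.61 and 8.22 in WT and 8.34, 8.44 and 8.36 in C2-/-, each without overlap. Both calls rested on single libraries: *Usp4* was under the fold required without C2-/- replicate 2 (-0.52), and *Usp15*, the rising gene nearest to the threshold, was not past it without WT replicate 1, 2 or 3 or C2-/- replicate 2 (0.53 to 0.56). After the GC correction neither was past the threshold, at -0.41 for *Usp4* and -0.24, with the sign turned, for *Usp15*. *Usp11*, with 0 to 10 reads in C2-/-, did not pass (-1.71 ± 0.81, adjusted p = 0.105). *Usp25* (chr16:77013684-77116783), which has a muscle isoform, stood at 7.68, 7.96, 7.61 and 8.34 log2 CPM in WT against 8.85, 9.05 and 9.08 in C2-/- and rose by 1.10 ± 0.19, adjusted p = 0.00194, and by 0.61, adjusted p = 0.0274, after the GC correction. Its paralog *Usp28*, with 46.8% GC against 45.4%, was lower in all C2-/- libraries than in all WT libraries (6.22, 6.31, 6.18 and 5.88 in WT and 5.63, 5.75 and 5.86 in C2-/-) without passing (-0.40 ± 0.17, adjusted p = 0.0796), and was past the threshold after the GC correction (-0.71, adjusted p = 0.0178).

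*Usp18* (chr6:121245906-121270917), which removes ISG15 from proteins, was read 25, 28, 32 and 19 times in WT replicates 1 to 4 and 0 times in each C2-/- library. It was at least 2.21-fold lower in C2-/-, taking 3 reads of the shallowest C2-/- library as the limit, and its adjusted p was 0.00203. The interferon-response genes *Ifit1*, *Ifit3*, *Irf7* and *Rsad2* had 0 of 4 past the threshold, with changes from -1.37 to 1.23, and *Isg15* was not analysed here. *Uba7*, the E1 of ISG15, was at 3.13, 3.01, 3.86 and 1.82 in WT and 2.41, -2.42 and 1.25 in C2-/-, with 0 reads in C2-/- replicate 2, and did not pass (-2.54 ± 1.0, adjusted p = 0.0596).

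Among the OTU deubiquitinases 1 of 6 rose. *Otud6b* stood at 6.65, 6.77, 6.74 and 7.34 log2 CPM in WT against 7.86, 8.04 and 8.06 in C2-/-, without overlap, and rose by 1.11 ± 0.19, adjusted p = 0.00167; after the GC correction it stood at 0.22. *Otud1* stood at 3.72, 3.72, 3.88 and 4.14 in WT and 4.70, 3.69 and 6.73 in C2-/-, so that C2-/- replicate 3 alone was far above WT, and did not pass (1.17 ± 0.57, adjusted p = 0.112), although it did after the GC correction (2.22, adjusted p = 0.0223). *Otud5*, *Otud7b*, *Otud3* and *Otud4* lay between -0.83 and 0.57 without passing.

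Of the 24 members outside these role groups, 2 rose and 3, *Usp18* included, fell. *Usp45*, which acts on the repair nuclease subunit Ercc1, stood at 5.07, 4.78, 4.72 and 4.57 log2 CPM in WT against 5.98, 6.25 and 6.39 in C2-/-. It rose by 1.42 ± 0.20, adjusted p = 0.00074, and WT replicate 4 was the lowest WT library. *Usp32* rose by 0.88 ± 0.24, adjusted p = 0.0147, from 4.38 ± 0.30 (SD) log2 CPM in WT and 5.26 ± 0.28 in C2-/-, and was short of the threshold without WT replicate 1 (0.80, adjusted p = 0.0502). *Usp36*, a nucleolar enzyme, stood at 5.03, 5.06, 5.15 and 5.31 in WT and 3.84, 4.03 and 4.16 in C2-/- and fell (-1.13 ± 0.21, adjusted p = 0.00227). *Usp10*, which acts on p53, stood at 5.83, 6.14, 6.02 and 5.88 in WT and 5.26, 5.29 and 5.16 in C2-/- and fell (-0.73 ± 0.17, adjusted p = 0.00667). With the GC correction *Usp45*, *Usp32*, *Usp36* and *Usp10* stood at 0.27, 0.22, 0.04 and 0.15, none past the threshold and the last pair with the sign turned.

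Several deubiquitinases with a known role or a large transcript did not pass. *Usp7*, which acts on Mdm2 and p53, stood at 6.61, 6.88, 6.67 and 6.62 in WT and 6.68, 6.87 and 6.82 in C2-/-, with a change of 0.09 ± 0.15, adjusted p = 0.629. *Usp24* had a change of -0.06 ± 0.15, adjusted p = 0.758, and *Usp48* of -0.01 ± 0.23, adjusted p = 0.965. *Usp47* and *Usp34* had an adjusted p under 0.05, non-overlapping groups and a change below the fold required (0.51 ± 0.15, adjusted p = 0.0177, and 0.52 ± 0.15, adjusted p = 0.0193). *Usp9x* did not pass (0.51 ± 0.25, adjusted p = 0.116), nor did *Usp2*, a clock-controlled gene, which spread widely in C2-/- (7.46, 8.0, 7.80 and 8.34 in WT and 7.75, 7.10 and 8.29 in C2-/-; change -0.19 ± 0.29, adjusted p = 0.598). At the edge of the threshold, *Usp15* at 0.59 was just inside and *Ube2n* at 0.54 just outside among rising genes. *Ube2cbp*, *Usp6nl* and *Usp39* had changes of -1.55 ± 0.61, adjusted p = 0.0581, -0.16 ± 0.50, adjusted p = 0.803, and 0.06 ± 0.26, adjusted p = 0.853. The 9 other deubiquitinases, *Usp31*, *Usp35*, *Usp37*, *Usp38*, *Usp40*, *Usp42*, *Usp43*, *Usp53* and *Usp54*, lay between -1.14 ± 0.94 for *Usp43* and 0.91 ± 0.35 for *Usp53*, and 0 of them passed.

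The paralogs were compared within each library, which removes any scaling factor that acts on a whole library. Of 16 families with at least 2 measured members, 5 held a member that rose and one that fell: *Ube2g1* and *Ube2g2*, *Ube2v2* and *Ube2v1*, *Ube2f* and *Ube2m*, *Usp15* and *Usp4*, and *Usp33* and *Usp20*. No such count was made for unrelated genes. The log2 difference *Ube2g1* minus *Ube2g2* was 0.79, 0.77, 0.86 and 2.25 in WT and 3.68, 4.49 and 4.56 in C2-/-, so it was larger in every C2-/- library than in any WT library, WT replicate 4 lying between. For *Ube2v1* minus *Ube2v2* it was 2.14, 2.53, 2.80 and 1.75 in WT and 0.75, -0.35 and 0.10 in C2-/-. For *Usp20* minus *Usp33* it was -0.93, -0.65, -0.82 and -1.15 in WT and -3.67, -7.94 and -4.59 in C2-/-, without a WT library near the C2-/- values. The pair *Usp25* minus *Usp28*, which differ little in GC, stood at 1.46, 1.65, 1.43 and 2.46 in WT and 3.22, 3.30 and 3.22 in C2-/-. By contrast *Ube2a* minus *Ube2b*, which do not differ in GC, stood at -4.25, -4.24, -4.09 and -4.35 in WT and -4.09, -4.39 and -4.31 in C2-/-, with overlap. *Usp16* minus *Usp45* gave a mean of 1.36 ± 0.23 (SD) in WT and 1.14 ± 0.16 in C2-/-, also with overlap. After the GC correction the *Ube2g1* and *Ube2g2* changes were 1.13 apart instead of 3.07, and those of *Usp33* and *Usp20* 2.58 instead of 4.51. Those of *Ube2v2* and *Ube2v1* were 0.49 apart instead of 2.14, in reversed order (-0.14 and 0.35). Those of *Ube2f* and *Ube2m* were 0.44 apart instead of 1.71, also in reversed order (0.60 and 1.05). *Usp15* and *Usp4* kept their order, at -0.24 and -0.41. *Usp25* and *Usp28* were 1.33 apart instead of 1.5. Beside *Ube2v1*, 7 members share over 10% of the 50-base stretches of their transcript with other genes and are less certain: *Usp49* (51.8%), *Usp1* (22.8%), *Ube2q2* (20.9%), *Ube2d2a* (16.2%), *Ube2j2* (12.9%), *Ube2e1* (12.1%) and *Ube2n* (10.7%).

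**Figure D3:**
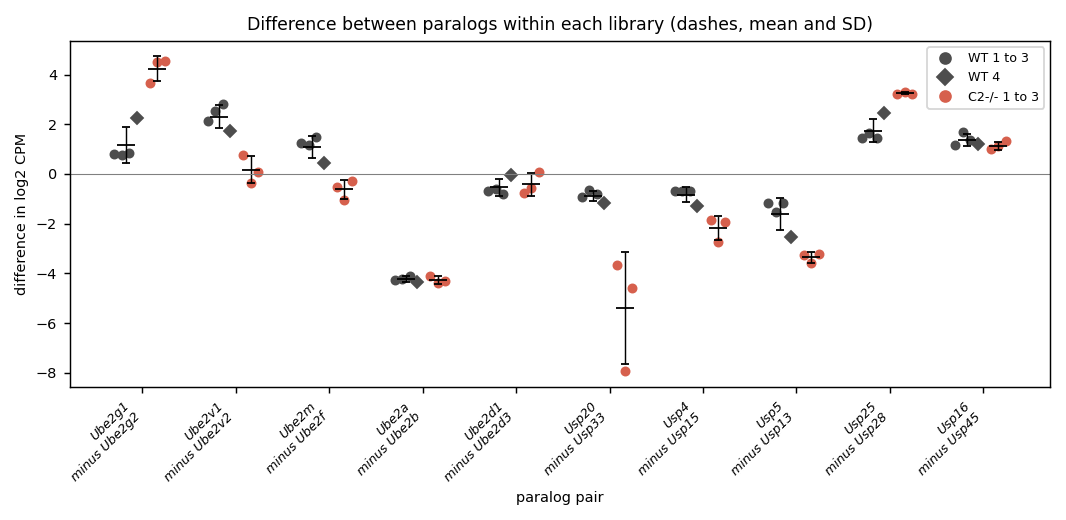
Difference in log2 CPM between the members of 10 paralog pairs in each library, with WT 1 to 3 as grey circles, WT 4 as grey diamonds, C2-/- as red circles, and dashes and bars for the group mean and SD. The difference of Ube2g1 and Ube2g2 runs from 0.77 to 2.25 in WT and from 3.68 to 4.56 in C2-/-, while that of Ube2a and Ube2b overlaps.

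Across the 83 genes the log2 change went with the GC content of the transcript. Spearman's rho was -0.77 (Pearson's r -0.69), -0.79 over the 33 conjugating enzymes and -0.75 over the 50 deubiquitinases. It was -0.68 over the 12177 genes with a matched transcript. These correlations are across genes that share the same 7 libraries, and genes are not independent replicates. The 22 genes that rose had a median GC content of 43.4% (35.1% to 50.5%), the 16 that fell 55.4% (50.7% to 63.4%), and the 45 others 48.5%. Of the 12 conjugating enzymes among the genes lowest in GC (a 3-way split of the 83), 8 rose and 0 fell, and of the 11 among the highest, 0 rose and 7 fell. The deubiquitinases gave 7 higher and 0 lower of 16 among the lowest, and 0 higher and 8 lower of 17 among the highest. The conjugating enzymes and the deubiquitinases had the same median GC content, 47.9%. Depth went with genotype in these libraries, and its part in the trend was not tested.

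**Figure D4:**
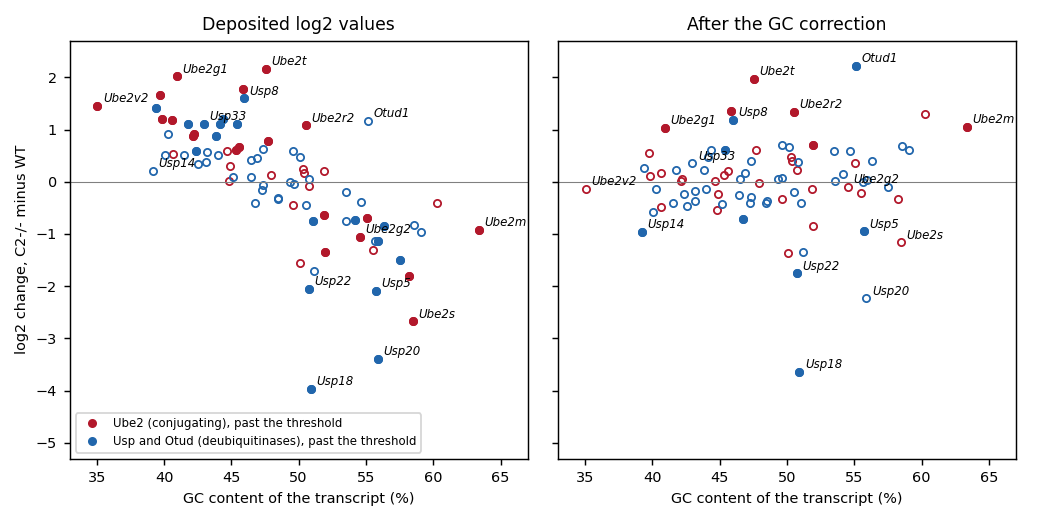
Log2 change (C2-/- minus WT) of each of the 83 genes against the GC content of its transcript, from the deposited values on the left and after the GC correction on the right; filled points are past the threshold in the fit shown. On the left the genes that rose lie at a GC content of 35.1% to 50.5% and those that fell at 50.7% to 63.4%; on the right Ube2t, Ube2d1, Ube2g1, Ube2r2, Usp8, Usp25, Usp5, Usp18 and Usp22 are still filled while Ube2m has crossed the zero line.

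The other genes of the pathway were taken from a list of 61, of which 51 were measured, and 16 rose and 14 fell (58.8%, against 45.2% of all genes), with a median change of -0.03 against -0.14. With GC corrected, 4 were higher and 5 lower, against 12.3% and 8.33% of all genes. *Ubb*, a polyubiquitin gene, stood at 7.66, 7.45, 7.37 and 6.94 in WT and 5.53, 5.34 and 6.03 in C2-/-, without overlap, and fell (-1.72 ± 0.22, adjusted p = 0.000538), also after the GC correction (-0.85, adjusted p = 0.0183). *Rps27a*, a fusion of ubiquitin with a ribosomal protein, did not pass (-0.45 ± 0.31, adjusted p = 0.249). Of 8 activating enzymes, *Uba1*, the main E1 of ubiquitin, and *Sae1*, of the SUMO E1, fell (-0.76 ± 0.14, adjusted p = 0.00233; -0.85 ± 0.28, adjusted p = 0.0322), and the subunits of the NEDD8 E1, *Nae1* and *Uba3*, rose (1.75 ± 0.28, adjusted p = 0.00127; 0.86 ± 0.16, adjusted p = 0.0023). After the GC correction only *Nae1* of these 4 was past the threshold (0.71, adjusted p = 0.0446). *Uba3* then had its sign turned (-0.49, adjusted p = 0.0518), and *Uba1* and *Sae1* stood at -0.24 and -0.42. *Sae1* was also not past it without WT replicate 1, 2 or 3 or C2-/- replicate 3 (-0.79 to -0.74).

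Conjugating enzymes and E2-like proteins outside the Ube2 names gave 3 higher and 1 lower of 6, with *Tsg101*, *Aktip* and *Uevld* higher and *Cdc34* lower (-1.5 ± 0.20, adjusted p = 0.000638). *Cdc34* and its relative *Ube2r2* thus differed in direction, at 50.5% GC for *Ube2r2* and 63.4% for *Cdc34*, and after the GC correction *Cdc34* stood at 0.47, with the sign turned, and 0 of the 6 were past the threshold. Of 21 measured deubiquitinases outside the Usp and Otud names, 8 rose and 5 fell, among them *Mysm1* (1.94 ± 0.29, adjusted p = 0.00095) and *Bap1* (-1.60 ± 0.20, adjusted p = 0.000503), both histone H2A enzymes. Once GC was corrected, 2 of the 21 were higher and 4 lower, with *Bap1* past the threshold (-0.59, adjusted p = 0.0439) and *Mysm1* not (0.85, adjusted p = 0.0727). Of the 7 measured partner proteins, 2 rose and 2 fell, and 1 was higher and 0 lower after the GC correction.

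Markers of the cell types in the muscle were measured beside these genes. The 7 skeletal fibre markers summed to 180000 to 209000 CPM in WT and 91100 to 112000 CPM in C2-/-, with 4 of 7 lower (*Acta1*, *Ckm*, *Pvalb* and *Atp2a1*), so the tissue label held in both groups. The 4 fibroblast markers (*Pdgfra*, *Dcn*, *Lum* and *Col1a1*) all rose and summed to 339 to 521 CPM in WT and 1250 to 1420 CPM in C2-/-. Endothelial markers had 1 of 5 lower and none higher (281 to 482 CPM against 246 to 328), and macrophage markers 1 of 6 higher and 1 lower (25.5 to 42.7 CPM against 38.7 to 55.1). Of the adipocyte, Schwann cell, red cell and satellite cell markers, 0 of 2, 1 of 3, 1 of 1 and 1 of 3 measured passed, with *Mbp* and *Alas2* lower and *Myf5* higher. Some of these calls rested on single libraries: *Myf5* kept its call without C2-/- replicate 2 and lost it when any of the other 6 libraries was left out (1.55 to 2.21), and *Mbp* was not without WT replicate 3 (-1.03). *Alas2* (-1.52 to -1.47) and *Atp2a1* (-0.93 to -0.91) were not past it without WT replicate 1, 2 or 3, and *Pdgfra* was not without WT replicate 2 or 3 or C2-/- replicate 2 (0.66 to 0.81). After the GC correction 1 of 7 fibre markers was higher and 2 lower, 2 of 4 fibroblast markers and 1 of 2 adipocyte markers were higher, and 0 of the endothelial, macrophage, Schwann cell, red cell and satellite cell markers passed. None of the measured markers was at 0 reads in all 3 C2-/- libraries. Their part in the changes of the 83 genes was not tested.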

How the data were processed

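RNA from the TA muscle of 4 WT and 3 C2-/- mice was sequenced, 1 library per animal. The authors aligned reads with HISAT, counted them per gene with featureCounts 1.5.2 (GRCm38.p6), and scaled them by TMM in edgeR. The deposited log2 values are log2 CPM with 0.5 reads added. Strand and multi-mapped read settings are not given in the sources used here, so overlapping genes cannot be told apart. A second deposited table holds the authors' own fold changes and p-values, which were not used. Whole reads were recovered from the log2 steps.

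Genotypes were compared with limma 3.58.1 (R 4.3.3) with a mean-variance trend on all 12239 genes, at an adjusted p under 0.05 and a fold above 1.5. The script was tested on simulated data. GC content and stretches came from GENCODE transcripts matched by symbol (12177 genes, 99.5%). Alternatives covered scaling, filters, weights, read models, GC content (natural spline with 5 degrees of freedom), left-out libraries and the replicate block. Where the labels do not say how samples relate beyond their number, p-values measure only the spread between these samples.

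The members, lists and tests were chosen with earlier results of these data known. By the rule for named genes, the text gave the 6 largest rises and falls without overlap in each family, members with a known role in muscle or a named pathway, close paralogs, *Mybpc2* and genes at the threshold. Other members were named after their values were seen, to account for the 83, apart from results that are not reported here.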

Additional observations from a re-analysis of the deposited data

Results flagged for a closer look

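A WT library stood far from the other 3 WT libraries, by Dixon's criterion for 4 samples, for 21 of the 83 genes, and chance flags about 1 in 20. The criterion was applied to the 83 genes only, so whether other genes differ from them in this is not known here. WT replicate 4 was that library for 19 of them. It was above the others for 11. *Ube2b* was at 9.73 log2 CPM there against 9.08 to 9.16 in the others, *Ube2g1* at 8.23 against 7.09 to 7.20, *Ube2k* at 6.64 against 5.92 to 5.99, and *Ube2r2* at 8.61 against 7.95 to 8.04. *Ube2n* was at 6.22 against 5.78 to 5.80, *Usp1* at 5.37 against 4.21 to 4.31, *Otud6b* at 7.34 against 6.65 to 6.77, and *Otud4* at 6.80 against 5.96 to 6.01. *Usp34* was at 6.73 against 6.45 to 6.49, *Usp53* at 4.33 against 3.49 to 3.61, and *Usp54* at 4.28 against 3.16 to 3.33.

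WT replicate 4 was below the others for 8 genes. *Ube2o* was at 4.84 against 5.67 to 5.74, *Ube2z* at 4.87 against 5.31 to 5.34, *Usp5* at 5.29 against 6.08 to 6.16, and *Usp21* at 3.85 against 4.68 to 4.77. *Ube2cbp* was at 1.11 against 2.06 to 2.18, *Usp49* at 0.95 against 2.22 to 2.48, *Usp12* at 4.10 against 4.80 to 4.93, and *Usp33* at 4.70 against 5.04 to 5.10. For 17 of the 19, WT replicate 4 was displaced from the other WT libraries towards the C2-/- mean, the exceptions being *Usp12* and *Usp33*. WT replicate 2 was above the others for *Usp4*, at 7.05 against 6.92 to 6.94, and WT replicate 3 for *Usp35*, at 1.12 against 0.52 to 0.62. No library was left out of the values reported for this reason.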

How the results depend on the processing

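Counts of genes past the threshold stayed within 1.5 times the reported ones, outside the GC-corrected fits, in every alternative run but median centring, which gave 16 deubiquitinases higher. The GC correction gave 6 conjugating enzymes higher and 0 lower and 3 deubiquitinases higher and 5 lower. With a filter on low values added (mean log2 value of 3 or more) it gave 5, 1, 4 and 4. The replicate block with the GC correction gave 7, 2, 5 and 6. Leaving out 1 library at a time gave 10 to 15 conjugating enzymes higher and 6 to 9 lower, 7 to 11 deubiquitinases higher and 8 to 11 lower, and medians of 0.21 to 0.41 and 0.06 to 0.16. The median change of conjugating enzymes was 0.41 with quantile normalization, 0.41 with median centring, 0.56 with that filter alone, and 0.04 with both the filter and the GC correction. That of deubiquitinases was 0.17, 0.24 and 0.35 in the first 3 of these, 0.00 with the GC correction and -0.03 with the replicate block and the GC correction. Medians after the filter are over fewer genes. Quantile normalization moved the median of all genes by 0.19.

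Among values past the threshold in either fit, the sign turned only where GC was corrected. The change became, with the GC correction, with the filter added and with the replicate block added, 1.05, 1.05 and 1.19 for *Ube2m*, 0.35, 0.35 and 0.56 for *Ube2v1*, 0.15, 0.15 and 0.20 for *Usp10*, -0.96, -0.96 and -1.06 for *Usp14*, -0.24, -0.24 and -0.17 for *Usp15*, 0.39, 0.39 and 0.27 for *Usp21*, and 0.04, 0.04 and 0.19 for *Usp36*. It was -0.14 for *Ube2v2* in the first 2. With the replicate block and the GC correction it was 0.80 for *Usp2* and -0.63 for *Usp9x*. The cause was not tested.

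Deviations of same-numbered samples correlated at 0.0532, -0.0643 and -0.0528, so no pairing by replicate number was seen. So few pairs cannot exclude one. The replicate block gave 15 conjugating enzymes higher and 6 lower (median 0.21) and 12 deubiquitinases higher and 10 lower (median 0.09), with 37 of 38 calls kept and 6 added. Library quality weights, log2(CPM + 1) and voom on recovered reads kept all 38 and added 10, 1 and 5. An adjusted p under 0.01 left 26 of 38. A planned quasi-likelihood test on recovered reads was not run. Depth limits *Ube2c*, *Ube2ql1*, *Usp11*, *Usp18*, *Usp20*, *Usp35* and *Usp43*, each at 0 reads in at least 1 C2-/- library.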
